A study of Homo sapiens with 2 samples.

Results

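C/D box small nucleolar RNAs (snoRNAs) were measured by RNA sequencing in KYSE30, an established esophageal squamous cell carcinoma line. Members were chosen by name and level: their gene symbol starts with SNORD and a digit, and they were listed above 0 in at least 1 of 2 libraries. This selected 145 of 284 such genes, among 40392 genes in all. Because the measured levels selected the genes, levels and ratios are given here as a description.

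One library (mock) was made from stable transfectants carrying pIRES2-EGFP, a plasmid that expresses green fluorescent protein. The other (RHCG) was made from stable transfectants carrying a plasmid that expresses human RHCG, an ammonium transporter of esophageal epithelium. Both groups share the KYSE30 background and the tissue label esophagus, and the labels do not say whether a group is a pool or 1 clone, or whether the plasmids have the same backbone. Each group is 1 library of total RNA depleted of ribosomal RNA, so there is no replicate spread, no test was made, and every difference compares these 2 libraries. In RNA from a whole culture, fewer cells with an RNA and less of it per cell cannot be told apart. RHCG, the transfected gene, stood at 0 in mock and at 413 RPKM (reads per kilobase of transcript, scaled to depth) in the library labelled for it. Of 14 squamous epithelium markers 12 were listed in at least 1 library, with KRT5 and PKP1 at 0 in both. The 12 had a median log2 ratio of RHCG over mock of −0.72 by the ratio defined below: KRT6A (−3.14), KRT15 (−1.85), KRT13 (−1.31) and SOX2 (−1.18) were at least 2-fold lower and KRT16 (1.73) higher, and their part in the snoRNA values was not tested. Depth, estimated from the spacing of low values, was near 18900000 reads for mock and 22100000 for RHCG.

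C/D box snoRNAs guide ribose methylation of ribosomal RNA and of spliceosomal snRNA, and a few, such as U3, U8 and U14, act in cleavage of the ribosomal RNA precursor. Each carries a C box near the 5′ end and a D box near the 3′ end, which bind the proteins SNU13, NOP56, NOP58 and the methyltransferase fibrillarin, and bases upstream of a D box pair with the target. In human cells most are cut out of introns of a host gene, which encodes a ribosomal protein, a nucleolar or translation protein, or a long non-coding RNA whose spliced product is often short-lived.

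The sequences of the RNAs that the comparison turns on are shown in GENCODE release 29 form, as DNA letters from 5′ to 3′. Capitals mark a C box (ATGATGA or GTGATGA, within the first 25 bases) and a D box (CTGA, within the last 15 bases), searched on the RNA's own strand. The first set shows SNORD26, which had the highest log2 ratio of RHCG over mock, between its neighbours SNORD25 and SNORD27 in SNHG1.
SNORD25: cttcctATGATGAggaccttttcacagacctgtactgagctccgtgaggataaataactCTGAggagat
SNORD26: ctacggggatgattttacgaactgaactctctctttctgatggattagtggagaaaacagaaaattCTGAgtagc
SNORD27: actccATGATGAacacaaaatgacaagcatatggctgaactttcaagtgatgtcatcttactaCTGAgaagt

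The second set shows other RNAs at least 2-fold higher in the RHCG library, SNORD53 and SNORD92 from WDR43 and SNORD100 from RPS12, and SNORD41 from TNPO2, which was lower.
SNORD53: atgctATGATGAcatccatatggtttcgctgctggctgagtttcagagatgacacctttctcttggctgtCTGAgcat
SNORD92: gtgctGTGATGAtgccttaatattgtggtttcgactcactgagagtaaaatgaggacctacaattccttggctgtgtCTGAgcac
SNORD100: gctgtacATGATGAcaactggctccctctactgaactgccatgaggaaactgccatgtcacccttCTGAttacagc
SNORD41: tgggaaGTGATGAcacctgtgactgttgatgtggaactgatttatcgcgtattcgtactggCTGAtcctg

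The third set shows the 3 SNORD88 RNAs of C19orf48P, which share most bases and were all below a log2 ratio of 0, and the abundant SNORD96A with its copy SNORD96B.
SNORD88A: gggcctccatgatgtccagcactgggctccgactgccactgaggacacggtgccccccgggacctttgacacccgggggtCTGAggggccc
SNORD88B: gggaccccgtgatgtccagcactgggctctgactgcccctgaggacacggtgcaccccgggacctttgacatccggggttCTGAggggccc
SNORD88C: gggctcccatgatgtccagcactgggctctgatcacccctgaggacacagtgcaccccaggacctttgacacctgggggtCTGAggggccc
SNORD96A: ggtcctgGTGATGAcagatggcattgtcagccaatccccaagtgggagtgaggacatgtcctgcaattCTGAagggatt
SNORD96B: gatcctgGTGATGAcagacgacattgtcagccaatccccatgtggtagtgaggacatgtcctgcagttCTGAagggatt

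Among 124 members with a sequence that could be searched, a C box in this strict form was found in 73 (58.9%), a D box in 114 (91.9%) and both in 71 (57.3%). SNORD26 and the SNORD88 RNAs had no match to the C box letters. Of 133 SNORD genes listed at 0 in both libraries, 79.7% had the C box and 93.2% the D box. Among 140 entries of H/ACA box snoRNAs, the other main class, which guide pseudouridylation, the C box letters occurred in 0 and the D box letters in 4 (2.86%). By RefSeq length, the members ranged from 48 to 237 bases, with a median of 76. These lengths, also used for the approximate reads, differ from those of the GENCODE sequences for some members. In the GENCODE annotation 137 lay in an intron of their host and 8 overlapped an exon.

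C/D box snoRNAs were abundant in both libraries. The median member was at 930 RPKM in mock cells and 1423 RPKM in RHCG cells, against a mock median of 10.5 RPKM over all genes listed in both. More than 1000 RPKM was reached by 69 members in mock and by 72 in RHCG cells. SNORD104, a large subunit rRNA guide in SNHG25, led the mock library at 26350 RPKM and stood at 26950 RPKM in the RHCG library. SNORD96A, which guides methylation of 5.8S rRNA from an intron of the ribosomal scaffold gene RACK1, was at 23349 and 23231 RPKM. Both thus had nearly the same level in the 2 libraries, with log2 ratios of 0.03 and −0.01.

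SNORD46, a large subunit rRNA guide, was at 18422 RPKM in mock and 28097 RPKM in RHCG cells, where it ranked 1 among the members. Other RNAs among the 10 with the highest mean were level or below 0: SNORD55 (14279 and 14112 RPKM), SNORD83B (14030 and 12977 RPKM), SNORD95 (14967 and 11755 RPKM) and SNORD35B (11333 and 8632 RPKM). SNORD45A was at 9096 and 13446 RPKM. SNORD26 and SNORD100 completed these 10 because of their level in the RHCG library. The 10 highest members of each library held 42.7% (mock) and 41.0% (RHCG) of the summed member RPKM, and 7 were the same RNAs.

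**Figure D1:**
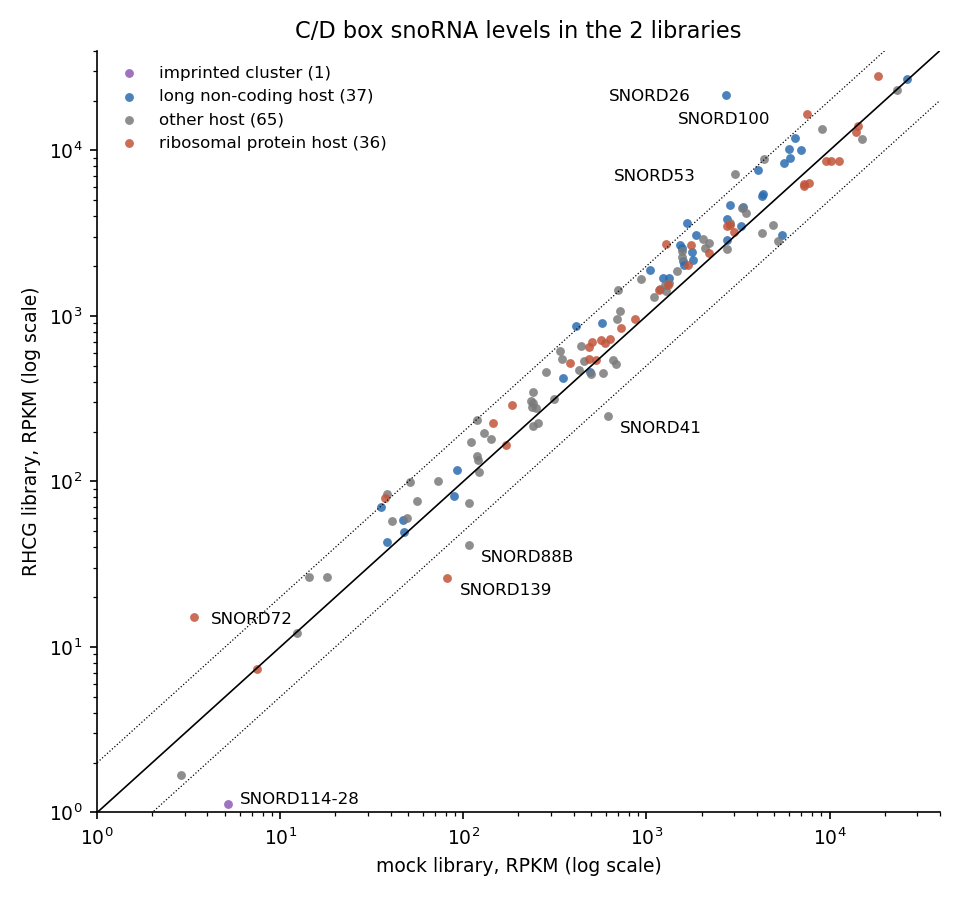
Level of each of the 139 C/D box snoRNAs listed in both libraries, mock on the horizontal and RHCG on the vertical axis, in RPKM on log scales, coloured by the kind of host. The solid line is equality and the dotted lines are 2-fold, and most points lie a little above equality, with SNORD26 far above at 2718 and 21609 RPKM.

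The order of levels was nearly the same in both libraries. Across the 139 members listed in both, the Spearman and Pearson (log) correlations of levels were 0.98 and 0.98, as a description of RNAs that share both libraries. Levels within the set were higher on balance in the RHCG library. The members took about 2.90% of mock reads and 3.58% of RHCG reads, and their summed RPKM was 1.24-fold higher in the latter. Without SNORD26 the sums were 352456 and 419318 RPKM.

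The ratio used throughout is log2((RHCG + 1)/(mock + 1)) in RPKM, where a ratio of 1 or more is called higher and −1 or less lower. Of the 139 members listed in both libraries, 106 (76.3%) lay above 0 and 33 below, and the median was 0.33, with quartiles of 0.04 and 0.59. Over all 11866 genes listed in both, 50.6% lay above 0 and the median was 0.01. Of the 145 members 11 (7.59%) were higher and 4 (2.76%) lower. In the background of all 12857 genes listed in at least 1 library, 352 were higher (2.74%) and 424 lower (3.30%). The share of higher members was above the background and that of lower members near it. Of the 139 listed in both, 98 (70.5%) lay within 1.5-fold, against 76.9% of all genes listed in both.

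With ratios centred on the other small RNA genes (H/ACA, Cajal body and snRNA genes), which removes 0.11, 6 members were higher, 4 were lower, 100 of 139 lay above 0 and the median was 0.21. The calls of SNORD102, SNORD15A, SNORD74, SNORD5 and SNORD92 were lost, and over all genes this centring gave 250 higher and 576 lower. Counting intervals at 95%, from approximate reads, lay above 0 for 95 members, below 0 for 21 and across 0 for 23, and these cover counting error only. They are for the log2 ratio without the added 1 RPKM, which differs from the ratio given mainly at low levels. The spread between cultures or library preparations lies outside such intervals. The ratio had a Spearman correlation of 0.06 with RNA length and 0.03 with level across the 139 members.

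Other small RNA classes in the same libraries were closer to 0. The 80 H/ACA box snoRNAs had a median log2 ratio of 0.13 with 55.0% above 0, and 2 of 84 were higher. The 24 Cajal body RNAs, which guide modification of snRNA, had a median of 0.09 with 1 higher, and 6 snRNA genes had a median of 0.06. Whether the C/D class differs from these by more than library preparation would give was not tested, since there is 1 library a group.

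**Figure D2:**
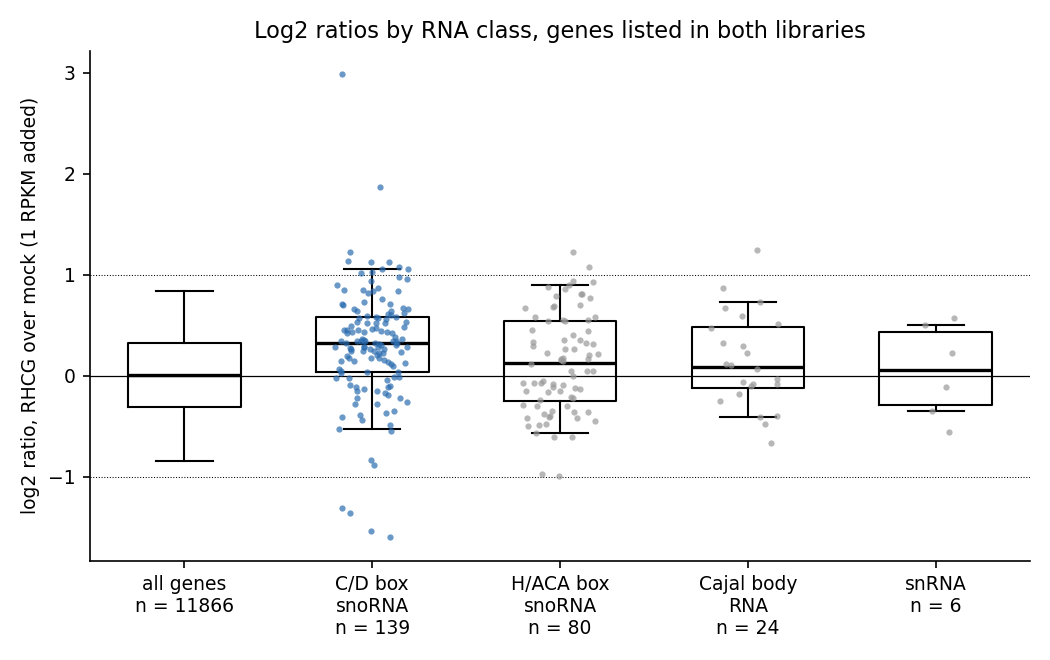
Log2 ratios of RHCG over mock (vertical axis, 1 RPKM added) for all genes and for 4 small RNA classes, genes listed in both libraries. Boxes give the quartiles, the thick line the median, whiskers the 5th and 95th percentiles, and points single RNAs, and the C/D box median of 0.33 lies above the others.

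SNORD26 stood apart from the other members. This guide for large subunit rRNA was at 2718 RPKM in mock and 21609 RPKM in RHCG cells, a 7.95-fold difference (log2 ratio 2.99, counting interval 2.94 to 3.04). Its values rested on about 3861 and 35761 reads, and its rank among the members went from 41 to 4. The next called member in order, SNORD72, had far fewer reads.

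The other snoRNAs of SNHG1, a long non-coding host on chromosome 11, were also above 0 but within 2-fold. SNORD25, a small subunit rRNA guide before SNORD26 in the host, was at 1519 and 2680 RPKM (log2 ratio 0.82). SNORD27, the small subunit rRNA guide after it, was at 6478 and 11831 RPKM (0.87). The neighbours of SNORD26 on both sides thus had ratios near that of the host, and the high ratio was found for 1 of 8 RNAs cut from the same precursor.

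Further along SNHG1, the small subunit guide SNORD28 was at 3356 and 4569 RPKM (log2 ratio 0.45). SNORD29, SNORD30 and SNORD31, which guide large subunit rRNA, had log2 ratios of 0.67, 0.57 and 0.57. SNORD22 (U22), which acts in small subunit rRNA processing, was at 1873 and 3100 RPKM (0.73). SNHG1 itself was at 36.6 and 60.3 RPKM, a log2 ratio of 0.71, and the median of its 7 snoRNAs other than SNORD26 was 0.67.

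**Figure D3:**
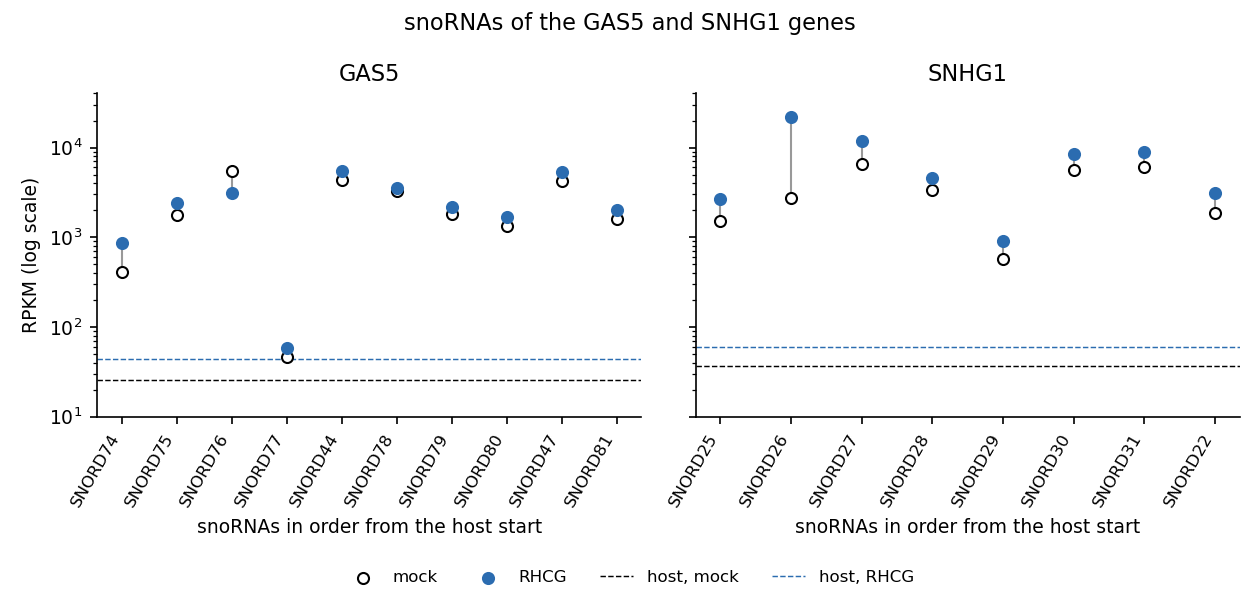
Levels of the snoRNAs of GAS5 and SNHG1 in order from the start of the host (horizontal axis), in RPKM on a log scale (vertical axis), with open circles for mock and filled circles for RHCG. Dashed lines give the host gene. SNORD26 (2718 and 21609 RPKM) has the widest gap, and SNORD76 in GAS5 is the only RNA shown that is lower in the RHCG library.

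GAS5, a long non-coding host on chromosome 1 known for its accumulation in growth-arrested cells, carries 10 members. GAS5 itself was at 25.9 RPKM in mock and 44.1 RPKM in RHCG cells (log2 ratio 0.75). Of its snoRNAs 9 lay above 0, with a median of 0.34. SNORD74 was at 414 and 864 RPKM (1.06) and overlaps an exon of the host. SNORD76, a large subunit rRNA guide, went the other way, at 5500 and 3085 RPKM (−0.83), on about 8439 and 5513 reads. So RNAs from 1 precursor lay on opposite sides of 0.

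The remaining GAS5 snoRNAs were close together in ratio but not in level. SNORD44, a small subunit rRNA guide often used as a reference in small RNA assays, was at 4313 and 5482 RPKM (log2 ratio 0.35). SNORD47 was at 4268 and 5329 RPKM (0.32), SNORD75 at 1773 and 2422 RPKM (0.45) and SNORD78 at 3284 and 3517 RPKM (0.10). SNORD79, SNORD80 and SNORD81 had log2 ratios of 0.28, 0.36 and 0.34. SNORD77 was the least abundant, at 46.6 and 58.8 RPKM (0.33, counting interval −0.15 to 0.82), so the levels of snoRNAs within GAS5 spanned 118-fold in the mock library.

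Long non-coding hosts as a class had most of their snoRNAs above 0. The 37 members in such hosts, those of GAS5 and SNHG1 included, had a median log2 ratio of 0.45, and 34 lay above 0. SNORD49A (SNHG29) was at 1662 and 3634 RPKM (1.13), while from the same host SNORD65 was at 6969 and 9986 RPKM (0.52), and SNORD49B at 1224 and 1695 RPKM (0.47). SNHG29 itself was listed at 0 in both libraries beside snoRNAs at these levels, so that 0 is no measure of absence. ZFAS1 was at 57.3 and 101 RPKM (0.81), and its SNORD12, SNORD12B and SNORD12C had log2 ratios of 0.85, 0.72 and 0.44. SNHG32 was higher, at 104 and 211 RPKM (1.01), and its SNORD52 was at 6024 and 10190 RPKM (0.76). The SNHG5 snoRNAs SNORD50A and SNORD50B were at −0.10 and −0.11, beside 0.27 for SNHG5.

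Of the hosts themselves, 8 of 13 long non-coding RNAs were listed, and these all lay above 0, with a median log2 ratio of 0.60. SNHG19 and SNHG29 stood at 0 in both libraries, and SNHG25, SNHG26 and SNHG30 had no value. Ribosomal protein hosts differed in sign from their snoRNAs. Of 15 such genes 12 lay below 0 with a median of −0.20 and 0 called, while their 36 members had a median of 0.22 with 25 above 0. In other hosts the 65 members had a median of 0.30 and the 41 hosts one of 0.08. Most members lie in introns of their hosts. Whether host values count exons only, and how the authors assigned reads in overlapping features, is not given in the sources used here.

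RPL4 and RPL23A show the difference in sign. RPL4 was at 398 and 254 RPKM (log2 ratio −0.64), whereas SNORD16 was at 1762 and 2674 RPKM (0.60), SNORD18C at 146 and 225 RPKM (0.62), SNORD18B at 592 and 682 RPKM (0.21) and SNORD18A at 2989 and 3232 RPKM (0.11). RPL23A was at 103 and 89.2 RPKM (−0.20), and its SNORD4A, SNORD4B, SNORD42A and SNORD42B lay at 0.46, 0.64, 0.23 and 0.43. All 8 snoRNAs of these 2 hosts were above 0 while both hosts were below.

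In RPL13A the host and all its snoRNAs lay below 0, and in RPL3 the host and all but SNORD43 did. The RPL13A snoRNAs SNORD32A, SNORD33, SNORD34 and SNORD35A are known as mediators of lipotoxic and oxidative stress as well as rRNA guides. SNORD33 was at 7721 and 6349 RPKM (log2 ratio −0.28) and SNORD34 at 7263 and 6230 RPKM (−0.22). All 4 lay between −0.28 and −0.15, and RPL13A, at 550 and 382 RPKM, at −0.53. In RPL3 (784 and 668 RPKM, −0.23), SNORD83A, SNORD83B and SNORD43 lay at −0.26, −0.11 and 0.04. The fourth, SNORD139, was at 81.3 and 26.1 RPKM (−1.60, counting interval −2.26 to −1.03), on about 85 and 32 reads.

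RPL7A fell between these. In RPL7A (376 and 281 RPKM, log2 ratio −0.41), SNORD24, SNORD36A, SNORD36B and SNORD36C stood at 0.34, −0.04, 0.33 and 0.17. No snoRNA of this host passed 2-fold.

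Some ribosomal protein hosts held 1 called snoRNA. SNORD100, a small subunit rRNA guide in RPS12, was at 7534 and 16577 RPKM (log2 ratio 1.14), on about 10846 and 27799 reads, while RPS12 was at 257 and 188 RPKM (−0.45). Its neighbour in the same host, SNORD101, was at 7.45 and 7.35 RPKM (−0.02). That value rests on about 10 and 12 reads, with a counting interval of −1.29 to 1.41, which includes the ratio of SNORD100. SNORD15A, a large subunit rRNA guide in RPS3, was at 1284 and 2720 RPKM (1.08), and SNORD15B at 2848 and 3550 RPKM (0.32) beside 0.17 for RPS3. In RPL21 (0.35), SNORD102 was at 37.4 and 78.9 RPKM (1.06). SNORD72, in RPL37 (−0.06), was at 3.38 and 15.1 RPKM (1.87), on about 5 and 27 reads. Without the added 1 RPKM it was 4.45-fold higher, with a counting interval of 0.82 to 3.95 in log2.

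**Figure D4:**
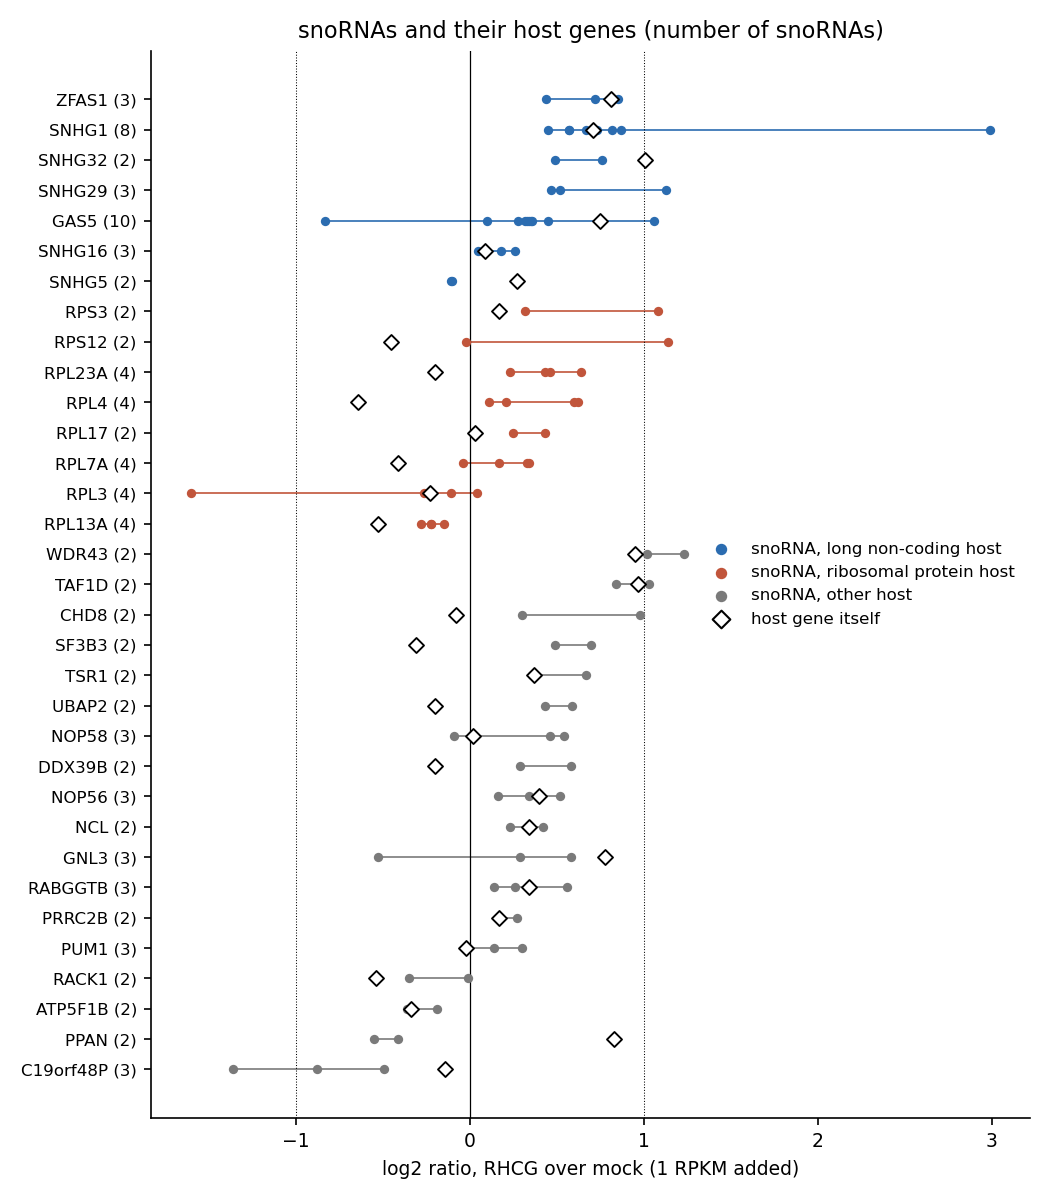
Log2 ratios of RHCG over mock (horizontal axis, 1 RPKM added) of the snoRNAs of 33 hosts with at least 2 members listed in both libraries (filled points, coloured by kind of host), and of the host gene (open diamonds). Numbers in parentheses count the snoRNAs, and the diamonds of RPL4, RPL23A and RPL7A lie left of 0 with most or all of their snoRNAs to the right.

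In WDR43, TAF1D and CCNB1IP1, hosts that were nearly 2-fold higher, the snoRNAs were near the host. WDR43, a protein of the small subunit processome, was at 25.7 and 50.5 RPKM (log2 ratio 0.95). Its SNORD53 was at 3052 and 7167 RPKM (1.23) and SNORD92 at 4394 and 8881 RPKM (1.02). TAF1D, a subunit of the selectivity factor of RNA polymerase I, was at 14.2 and 28.9 RPKM (0.97), with SNORD5 at 702 and 1437 RPKM (1.03) and SNORD6 at 930 and 1668 RPKM (0.84). CCNB1IP1, a ubiquitin ligase gene, was at 10.4 and 21.4 RPKM (0.97), and SNORD126 at 38.2 and 84.5 RPKM (1.12). Some other hosts well above 0 had snoRNAs further below them. GNL3, a nucleolar GTPase gene, lay at 0.78 with a snoRNA median of 0.29, and PPAN at 0.83 with one of −0.48. The GNL3 median is partly a matter of few reads. SNORD19 (−0.53) had about 4 and 3 reads, SNORD19B (0.29) about 87 and 124, and SNORD69 (0.58) about 1045 and 1826.

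Among hosts that encode snoRNP proteins, NOP56 (log2 ratio 0.40) carries SNORD56, SNORD57 and SNORD110 at 0.16, 0.34 and 0.52. NOP58 (0.02) carries SNORD11, SNORD11B and SNORD70 at 0.54, 0.46 and −0.09. SNORD9, in the chromatin remodeller gene CHD8, was just short of the 2-fold rule, at 119 and 235 RPKM (0.98), while CHD8 lay at −0.08. SNORD7, SNORD8, SNORD9, SNORD67 and SNORD94, which guide methylation of the U6 snRNA, lay between 0.24 and 0.98 (5 RNAs, grouped after their values were seen). SNORD10, a U6 guide outside that group, went the other way, at −0.44, so the U6 guides did not share a sign.

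Few members were lower. SNORD41, a large subunit rRNA guide in the nuclear import gene TNPO2, was at 614 and 247 RPKM (log2 ratio −1.31), on about 815 and 381 reads, while TNPO2 was at 47.0 and 54.4 RPKM (0.21). SNORD88B was at 107 and 41.3 RPKM (−1.36), SNORD88A at 5230 and 2832 RPKM (−0.88) and SNORD88C at 4936 and 3525 RPKM (−0.49), while their host C19orf48P was at 107 and 96.7 RPKM (−0.14). The 3 SNORD88 RNAs, which guide large subunit rRNA and share most bases, had log2 ratios below that of the host. Only SNORD88B was called lower. SNORD41, SNORD88B, SNORD139 and SNORD114-28 (5.17 and 1.13 RPKM, on about 7 and 2 reads) make the 4 members called lower.

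Below 0 without a call were SNORD105 (108 and 73.6 RPKM, log2 ratio −0.55) and SNORD105B (680 and 513 RPKM, −0.41). Their host PPAN, a ribosome biogenesis gene, lay on the other side of 0, at 0.83. SNORD10, in the helicase gene EIF4A1 (−0.55), was at 4289 and 3159 RPKM (−0.44). SNORD95, next to SNORD96A in RACK1 (2136 and 1467 RPKM, −0.54), had a log2 ratio of −0.35.

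Over 64 hosts with a ratio of their own, the Spearman and Pearson correlations of the host's ratio with the median of its snoRNAs were 0.38 and 0.32, as a description of genes measured in the same 2 libraries. Host and snoRNAs had the same sign in 39. Of 35 hosts above 0, 30 had snoRNAs with a median above 0, and of 29 hosts below 0, 20 did. The snoRNA median exceeded the host's ratio in 45 of 64, and the median difference was 0.17. Within the 34 hosts with at least 2 members, levels spanned a median of 6.0-fold in the mock library and ratios a median range of 0.35. The SD of ratios across members was 0.57, and 0.43 within hosts.

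**Figure D5:**
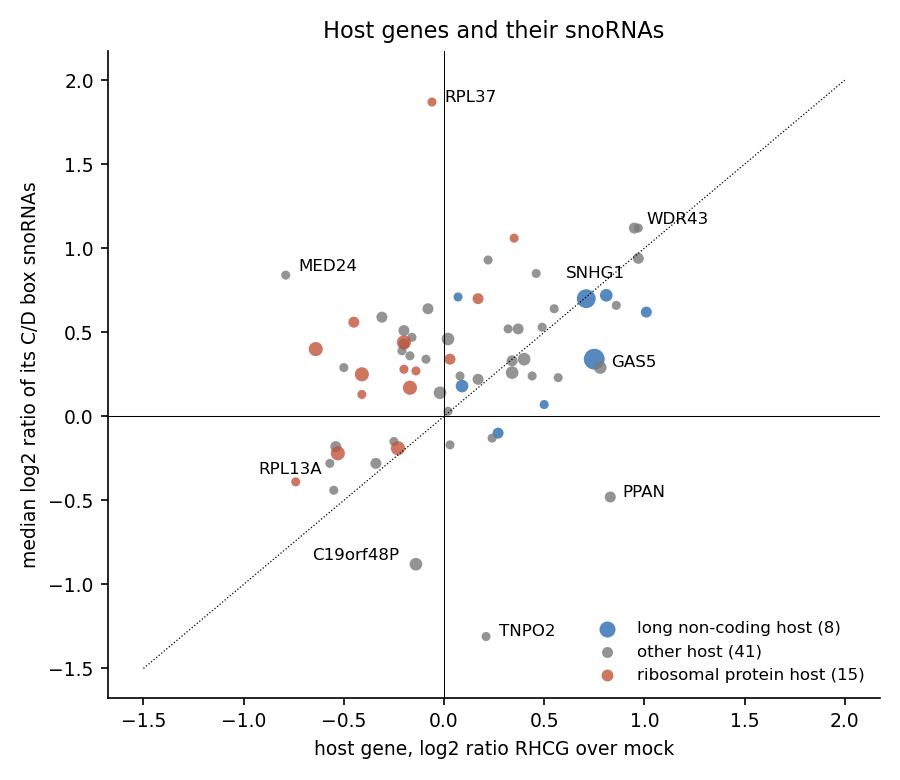
Log2 ratio of each of 64 host genes (horizontal axis) against the median log2 ratio of its C/D box snoRNAs (vertical axis), RHCG over mock with 1 RPKM added, larger points for more snoRNAs. The dotted line is equality, and 45 points lie above it, with TNPO2 and PPAN far below.

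Near-identical copies limit some values, since reads can fall on either gene and how the authors treated them is not given in the sources used here. A copy with at least 90% identity among SNORD genes was found for 12 of 126 members with a sequence. SNORD62A and SNORD62B are identical over 86 bases, with 118 and 142 RPKM for the first and 120 and 135 RPKM for the second. SNORD96B, on chromosome X in AMMECR1, was at 17.9 and 26.4 RPKM beside 23349 and 23231 RPKM for SNORD96A. Counted from 1 at the 5′ end, SNORD96A differs from SNORD96B by G2A, T19C, G21A, A41T, G46T and A66G (92.4% identity). SNORD88A differs from SNORD88B by C4A, T6C, A9G, C30T, A38C, C54A, C72T and G79T (91.2%), and whether reads of SNORD88A entered the SNORD88B value was not tested.

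The 8 members that overlap an exon of their host all lay above 0, with a median log2 ratio of 0.70. They ranged from 0.26 (SNORD1C) to 1.06 (SNORD74). All but SNORD42B and SNORD121B lie in long non-coding hosts, whose 37 members had a median of 0.45, so overlap and kind of host are not separated here. The 131 intronic members listed in both libraries had a median of 0.30. Reads of host exons and of these snoRNAs may be shared, which was not tested.

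At the edge of the selection, 6 members were listed in only 1 library, at 1.43 to 2.23 RPKM, and all are copies from imprinted clusters, the SNORD113 and SNORD114 genes of chromosome 14 or the SNORD115 and SNORD116 genes of chromosome 15. SNORD114-12, SNORD114-20, SNORD114-22 and SNORD114-23 of the chromosome 14 cluster and SNORD115-48 of the chromosome 15 cluster were listed in the mock library, and SNORD114-25 in the RHCG library. These 2 sets of copies count 40 and 76 genes in the tables and gave 6 and 1 members, with no value over 5.17 RPKM.

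Of the 139 SNORD genes just outside the selection, listed at 0 in both libraries, 109 are SNORD113 to SNORD116 copies and 30 have other names. Some of the 30, such as SNORD112, SNORD107 and SNORD109A, lie in the same imprinted hosts. The 30 also include U3 (SNORD3A, SNORD3B-1, SNORD3B-2, SNORD3C and SNORD3D), U8 (SNORD118) and U13 (SNORD13), which have promoters of their own, and the U14 genes SNORD14A to SNORD14E. U3 and U14 are needed for small subunit rRNA in all cells, so a listed 0 is no measure of absence here. The U14 hosts were abundant: RPS13 was at 117 and 55.3 RPKM, and HSPA8 at 685 and 160 RPKM.

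Genes for proteins of the C/D box particle were listed in both libraries and none of the 5 was called, with a median log2 ratio of −0.07. FBL, which encodes fibrillarin, was at 172 and 94.3 RPKM (−0.86), NOP56 at 69.2 and 91.6 RPKM (0.40) and NOP58 at 40.6 and 41.0 RPKM (0.02). Of 13 assembly factors, which had a median of −0.14, 3 were lower and 0 higher. These were HSP90AA1, the inducible HSP90 chaperone, at 457 and 123 RPKM (−1.88), PIH1D1, a subunit of the R2TP complex, at 80.1 and 34.4 RPKM (−1.19), and its helicase subunit RUVBL2 at 255 and 121 RPKM (−1.08).

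Of 21 genes for intron debranching, trimming and transport of snoRNAs, 1 was lower and 0 were higher, and the median log2 ratio was 0.05. The lower gene was PHAX, an export adaptor that carries capped snoRNAs to Cajal bodies, with 4.37 RPKM in RHCG cells (−1.16). Of 6 genes of the H/ACA particle, DKC1, the pseudouridine synthase dyskerin, was higher at 54.8 and 116 RPKM (1.07). Of 31 small subunit processome genes 0 were called, 21 lay above 0 and the median was 0.17. Of 14 RNA polymerase I genes 1 was higher, the initiation factor RRN3 at 12.4 and 32.3 RPKM (1.32), and the median was 0.68.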

How the data were processed

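RNA from 2 libraries of KYSE30 transfectants was analysed, 1 per group. Each library has a table deposited by the authors, and its column headed RPKM holds log2 RPKM with no pseudocount, judged from the values. The submitters' processing notes name hg19 and bedtools 2.25.0, and for the aligner and counting rule: not given in the sources used here. Low values were whole reads (within 0.01) in only 25.4% (48 of 189) and 37.1% (66 of 178) of cases, so counts were not recovered and read numbers are approximate.

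Values were unlogged, rows with a copy suffix were summed to 40392 genes, and genes listed at 0 in 1 library were set to 1 RPKM. The log2 ratio of RHCG over mock was taken with 1 RPKM added, for genes listed in at least 1 library, and a 2-fold rule was applied. With that floor, a filter on means of 1 RPKM or more keeps the same genes. Symbols matched 38047 genes. Hosts were the shortest gene containing the snoRNA in GENCODE release 29, on the same strand except for 19 members with no entry there, in place of the RefSeq genes first planned. No coordinates are given because the builds differ. Intervals are 95% Clopper-Pearson intervals of the ratio without the added 1 RPKM. The sequence of SNORD genes on 1 chromosome was left out of the motif search.

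Named RNAs were the 8 highest and 8 lowest by ratio among those averaging 10 RPKM or more, the 10 most abundant, U3, U8 and U13, all of the hosts with at least 4 members (1 host is not reported here), those nearest 2-fold, their hosts, and called genes or the most abundant of each list. SNORD72, the group of 5 U6 guides, copies and members of smaller hosts were named after their values were seen. Members and lists were chosen with earlier results of these data known. The rule was tested on simulated data that held counting error only and the read numbers of far longer transcripts. That run does not give the error of the rule for these short RNAs. Alternatives were other pseudocounts, filters, scalings, copy handling and a 1.5-fold rule. Software was matplotlib 3.10.9, edlib 1.3.9.post1, scipy 1.17.1, Python 3.11.15, pandas 2.3.3 and numpy 2.4.6.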

Additional observations from a re-analysis of the deposited data

How the results depend on the processing

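No paired analysis was possible because each group is 1 library, and for the same reason none was left out. The median log2 ratio of the members, 0.32 over all 145, was between 0.21 and 0.34 under every alternative run. Over all genes, 352 higher and 424 lower changed to 533 and 673 at a pseudocount of 0.1 RPKM, to 686 and 1004 where listed zeros stay 0 RPKM, and to 1447 and 1481 under a 1.5-fold rule. Each of these loosens the rule by construction. Of the members, 11 higher and 4 lower became 35 and 8 with the 1.5-fold rule. Where listed zeros stay 0 RPKM, 9 were lower, the added ones all being imprinted cluster RNAs of at most 2.23 RPKM. With near-identical copies left out 2 were lower, SNORD88B and SNORD114-28 being removed by construction. Centred on other small RNA genes 6 were higher, because 5 members within 0.11 of the threshold no longer reach it. Among the values of single members, hosts and lists, 669 kept within their counting error and 49 moved by more (48 of them with that centring). Some settings, such as the 1.5-fold rule, leave ratios unchanged by construction. A reversal of sign was counted only for single members past 2-fold, and 0 of these reversed. Values near 0 did change sign with that centring, such as SNORD104 (0.03 to −0.08) and SNORD43 (0.04 to −0.07). At this depth 5 of the members listed in both libraries had fewer than 20 reads in a library, and their ratios are imprecise.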
